A study of Danio rerio with 6 samples.

Results

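The lincRNAs si:dkey-23f9.15, si:ch211-202n12.4, si:dkeyp-9a1.3 and si:dkey-208k4.7 are 4 of the 1315 long intergenic non-coding RNAs (lincRNAs) counted in small RNA libraries of zebrafish embryos. They were chosen by their transcript identifiers because their levels were lower in the offspring of irradiated parents, so the difference between the groups is what selected them and is described here without a test. All 4 had enough counts to be among the 125 lincRNAs tested across the table, which required more than 100 counts in at least 3 of the 6 libraries.

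The F1-γ embryos came from wild type AB parents exposed as adults, during gametogenesis, to a 60Co gamma source at 8.7 mGy/h, a total dose of 5.2 Gy, and mated 1 year later. The F1-C embryos came from wild type AB parents that were kept without exposure. Both groups were sampled at 5.5 h post fertilization (hpf), at 50% epiboly, as 3 pools of 100 whole embryos, each giving 1 small RNA library (n = 3 per group). A value therefore averages many embryos, and with bulk RNA a smaller share of cells that carry a transcript and less of it per cell cannot be told apart.

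A lincRNA is a transcript longer than the small regulatory RNAs that lies between protein-coding genes and codes for no known protein, and members of the class are known to act in the nucleus on chromatin, splicing and transcription or in the cytoplasm on other RNAs. At the stage sampled, zebrafish embryos begin gastrulation, shortly after the embryonic genome has been switched on and while maternal transcripts are being cleared. In a small RNA library a lincRNA is seen only through short fragments or through small RNAs made from its locus, so a count measures these and not the intact transcript. The names of the 4 lincRNAs are those of the genomic clones in which they were annotated (si: for the sequencing centre, dkey, dkeyp and ch211 for the clone library), and no function is given for any of them in the sources used here.

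Totals in the lincRNA table were between 124348 and 131439 counts in F1-γ and between 96906 and 129490 in F1-C. A single row, si:dkey-153m14.1, held 1.11% ± 0.461 (SD, n = 3) of these counts in F1-γ and 17.1% ± 2.44 (SD, n = 3) in F1-C, so a share of the table depends on it, and levels are given as CPM (counts scaled to a library size of 1e+06) over the tested rows, with library sizes adjusted by TMM, a trimmed mean of log ratios between libraries. snRNA totals were between 5756 and 9138 counts in F1-γ and between 24212 and 30257 in F1-C, and their part in the values of the 4 lincRNAs was not tested. The miR-430 family, which marks this stage, took 83.9 to 88.4% of the miRNA counts in F1-γ and 85.8 to 87.6% in F1-C, although its members share reads.

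si:dkey-23f9.15 (transcript ENSDART00000171481.2, gene ENSDARG00000104394) lies on the plus strand of chromosome 11 from 11369837 to 11397266 and spans 27.4 kb. si:ch211-202n12.4 (ENSDART00000152334.2, gene ENSDARG00000053731) lies on the minus strand of chromosome 1 from 25879720 to 25881546, a span of 1.83 kb. si:dkeyp-9a1.3 (ENSDART00000157228.2, gene ENSDARG00000097833) lies on the minus strand of chromosome 17 from 31079362 to 31080578 and is the shortest of the 4, with a span of 1.22 kb. si:dkey-208k4.7 (ENSDART00000161654.2, gene ENSDARG00000096641) lies on the plus strand of chromosome 19 from 18906015 to 18918831, a span of 12.8 kb. The coordinates are those of the table, which names no genome build, while the study's methods and processing notes name GRCz10. The paper describes the libraries as non-directional, and the strand given here is that of the annotation.

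The 4 lincRNAs therefore lie on 4 chromosomes, and none of them overlaps another row of the lincRNA table, a row of the snRNA table or a piRNA cluster of the deposited table. If the tables share a build, the nearest piRNA cluster is 1.03 Mb from si:ch211-202n12.4, 1.69 Mb from si:dkey-208k4.7, 3.79 Mb from si:dkey-23f9.15 and 9.62 Mb from si:dkeyp-9a1.3. The 2 short rows lie on the minus strand and the 2 long ones on the plus strand, and the median span of the 125 tested lincRNAs was 6435 bp. Overlap with coding genes or repeats was not analysed here.

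si:dkey-23f9.15 had the lowest log2 fold change (log2 FC, F1-γ over F1-C) of the 4. It held 577, 241 and 178 counts in F1-γ replicates 1, 2 and 3, against 857, 1298 and 1084 counts in F1-C. In TMM-normalised CPM this was 4172, 1842 and 1341 in F1-γ, against 9330.0, 12689 and 13660.1 in F1-C. The 2 groups did not overlap, and F1-γ replicate 1 was the highest of its group, 3.11 times the lowest. The means were 2452 ± 1510 CPM in F1-γ and 11893 ± 2272 CPM in F1-C (SD, n = 3 each). This was 4.85-fold lower in F1-γ, and the fitted log2 FC was -2.28 (standard error 0.355). Without F1-γ replicate 1 the log2 FC was -2.90, and without F1-γ replicate 3 it was -1.98.

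For si:ch211-202n12.4 the counts were 239, 149 and 183 in F1-γ, against 327, 405 and 301 in F1-C. Its CPM values were 1728, 1139 and 1379 in F1-γ, against 3560.0, 3959 and 3793 in F1-C. The groups were apart, both in counts and in CPM, and the lowest F1-C library was 2.06 times the highest F1-γ library in CPM. The means of 1415 ± 296 CPM in F1-γ and 3771 ± 201 CPM in F1-C (SD, n = 3 each) gave a log2 FC of -1.41 (standard error 0.159), 2.66-fold lower in F1-γ.

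si:dkeyp-9a1.3 held 1731, 1029 and 1330 counts in F1-γ, against 2184, 2121 and 1625 counts in F1-C. Here the raw counts overlapped, because F1-γ replicate 1 held more than F1-C replicate 3. After TMM normalisation the values were 12515, 7866 and 10019 CPM in F1-γ, against 23777, 20735 and 20478 CPM in F1-C, without overlap. The mean was 10133 ± 2326 CPM in F1-γ and 21663 ± 1835 CPM in F1-C (SD, n = 3 each), which was 2.14-fold lower in F1-γ at a log2 FC of -1.10 (standard error 0.160).

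The smallest difference was that of si:dkey-208k4.7, with 408, 454 and 433 counts in F1-γ, against 557, 559 and 450 counts in F1-C. Its raw counts overlapped by 4 counts, between F1-γ replicate 2 and F1-C replicate 3. In CPM the values were 2950, 3471 and 3262 in F1-γ, against 6064, 5465 and 5671 in F1-C, and the lowest F1-C library was 1.57 times the highest F1-γ library. The means were 3227 ± 262 CPM in F1-γ and 5733 ± 304 CPM in F1-C (SD, n = 3 each), which was 1.78-fold lower in F1-γ at a log2 FC of -0.83 (standard error 0.118).

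**Figure D1:**
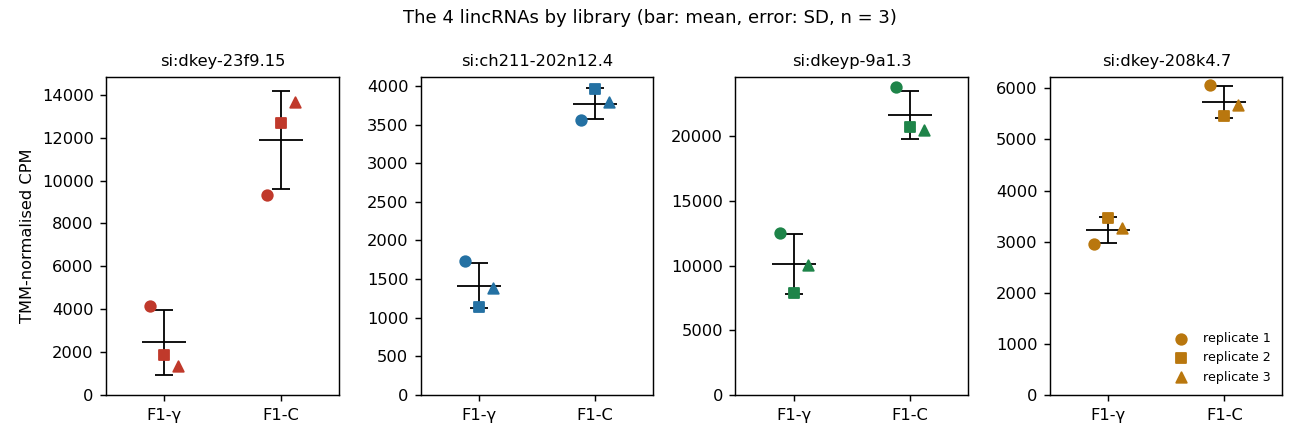
TMM-normalised CPM (y axis, from 0) of each of the 4 lincRNAs in the 3 F1-γ libraries and the 3 F1-C libraries, with the mean (bar), the SD (error bar) and a marker shape per replicate number. The groups do not overlap in any panel; si:dkey-23f9.15 lies between 1341 and 4172 in F1-γ and between 9330.0 and 13660.1 in F1-C, and F1-γ replicate 1 is the highest F1-γ library for all but si:dkey-208k4.7, where it is the lowest.

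Across the 125 lincRNAs tested with edgeR's quasi-likelihood test, 14 were called lower in F1-γ and 4 higher, with 0.05 as the limit on the adjusted p and 0.6 as the limit on the size of the log2 FC. The calls lower are 11.2% of the lincRNAs tested and the calls higher 3.2%, and the 4 described here are among them by the way they were chosen. The other 10 had log2 FC between -4.31 and -0.65. Among them, si:dkeyp-116h7.4 and si:dkeyp-116h7.2 overlap on opposite strands of chromosome 21, with nearly the same log2 FC (-0.648 each). The same holds for si:ch73-112l6.6 (-1.30) and si:dkey-163i6.7 (-1.29), so not every call is a separate locus. With library sizes from the lincRNA table totals and no TMM factors the split was 8 lower and 43 higher, and with the summed counts of the 4 tables it was 8 lower and 4 higher. Groups without overlap were common in this table, the F1-γ libraries all lying below the F1-C libraries for 29 lincRNAs (23.2%) and above them for 31 (24.8%), and the 4 lincRNAs are among the 29.

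In the order of log2 FC, si:dkey-23f9.15 came after si:dkey-153m14.1 (-4.31) and before malat1 (-2.05), a nuclear lincRNA that in mammals is found at splicing speckles. si:ch211-202n12.4 followed malat1 and stood before si:ch73-112l6.6 (-1.30). si:dkeyp-9a1.3 stood between si:dkey-163i6.7 (-1.29) and si:ch211-209a2.1 (-1.08), and si:dkey-208k4.7 between si:ch211-209a2.1 and si:zfos-1451h6.1 (-0.76). si:ch73-112l6.6 and si:dkey-163i6.7 overlap each other on opposite strands of chromosome 21, and their counts here do not tell them apart. Intervals of 1 standard error overlapped between each of the 4 and its neighbours, except between si:dkey-153m14.1 and si:dkey-23f9.15 and between malat1 and si:ch211-202n12.4. Just outside the limit of -0.6 was ENSDART00000154396.2, with a log2 FC of -0.59.

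**Figure D2:**
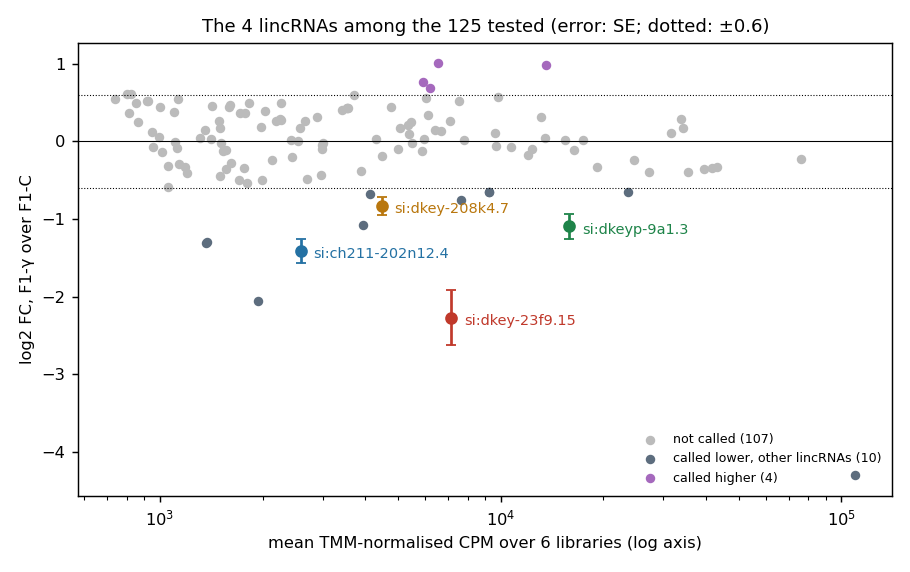
log2 FC of F1-γ over F1-C (y axis) against the mean TMM-normalised CPM over the 6 libraries (x axis, log scale) for the 125 lincRNAs tested, each a point. The 4 named lincRNAs (coloured, with the standard error) lie between -2.28 and -0.83 at mean levels of 2593 to 15898 CPM, below most of the other 121 lincRNAs, whose median log2 FC was 0.04.

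The levels of the 4 lincRNAs are set against each other here in CPM per kb of genomic span. Introns are included, because exon lengths were not used here. A long span with few exons therefore has a low value on this scale whatever its CPM. On that scale si:dkeyp-9a1.3 was the most densely covered, with 8326 CPM per kb in F1-γ and 17801 in F1-C, and was the 9th of the 125 tested lincRNAs by its mean over both groups. si:ch211-202n12.4 followed with 775 CPM per kb in F1-γ and 2064 in F1-C. The 2 long rows were far less densely covered, si:dkey-208k4.7 with 252 CPM per kb in F1-γ and 447 in F1-C and si:dkey-23f9.15 with 89.4 in F1-γ and 434 in F1-C. Per kb, si:dkey-23f9.15 had the lower mean of these 2 in both groups. Without division by span its mean was lower in F1-γ (2452 against 3227 CPM) but higher in F1-C (11893 against 5733 CPM). In F1-γ the 3 libraries of si:dkey-23f9.15 (48.9 to 152 CPM per kb) lay below those of si:dkey-208k4.7 (230.1 to 271), whereas in F1-C their values overlapped (340.1 to 498 for si:dkey-23f9.15 and 426 to 473 for si:dkey-208k4.7). The median of the tested lincRNAs over both groups was 406 CPM per kb.

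Ratios of counts within a library do not depend on any scaling. si:dkey-23f9.15 held 1.41, 0.531 and 0.411 times the counts of si:dkey-208k4.7 in the F1-γ libraries, against 1.54, 2.32 and 2.41 times in the F1-C libraries. F1-γ replicate 1 lay close to F1-C replicate 1 in this ratio, and the other 2 F1-γ libraries were well below. The counts of si:ch211-202n12.4 were 0.140 ± 0.00403 times those of si:dkeyp-9a1.3 in F1-γ and 0.175 ± 0.0223 times in F1-C (SD, n = 3 each), so these 2 lincRNAs kept nearly the same ratio in every F1-γ library. Counting error in F1-γ was about 7.35% for si:ch211-202n12.4 and 2.75% for si:dkeyp-9a1.3. At that error, 3 libraries cannot show that the 2 vary together this closely. si:dkeyp-9a1.3 held 3.19 ± 0.994 times the counts of si:dkey-208k4.7 in F1-γ and 3.78 ± 0.156 times in F1-C (SD, n = 3 each), a difference within the spread of the F1-γ libraries.

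With all 3 libraries, the spread between replicates was larger in F1-γ than in F1-C for each of the 4, on the scale of the coefficient of variation (CV) of CPM. si:dkey-23f9.15 had a CV of 61.6% in F1-γ, the highest of all 125 tested lincRNAs in that group, and 19.1% in F1-C. That value rests on F1-γ replicate 1, without which the CV of the other 2 libraries was 22.3%, in a comparison chosen after the data were seen. Counting error alone gives about 6.03% in F1-γ at its depth, and separate pools of embryos add their own spread to it. For si:dkeyp-9a1.3 the CV was 22.96% in F1-γ, 17.0% without F1-γ replicate 1, and 8.47% in F1-C, where counting error gives 2.75% and 2.26%. For si:ch211-202n12.4 it was 20.9% in F1-γ, with 13.5% without F1-γ replicate 1, and 5.32% in F1-C, where counting error gives 5.42%. si:dkey-208k4.7 was the steadiest, with 8.12% in F1-γ and 5.31% in F1-C against counting errors of 4.82% and 4.39%. Without F1-γ replicate 1, its lowest F1-γ library, the CV of the other 2 was 4.39%, against 5.31% from all 3 F1-C libraries. Leaving out an extreme library lowers a CV, so these 2 values do not show which group was steadier. The median CV of the tested lincRNAs was also higher in F1-γ (10.7%) than in F1-C (8.47%), so the direction was not particular to the 4. In rank from the highest CV of the 125, si:dkey-23f9.15 was 16 in F1-C and 1 in F1-γ. si:ch211-202n12.4 went from 93 to 19, si:dkeyp-9a1.3 from 63 to 16 and si:dkey-208k4.7 from 94 to 86.

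**Figure D3:**
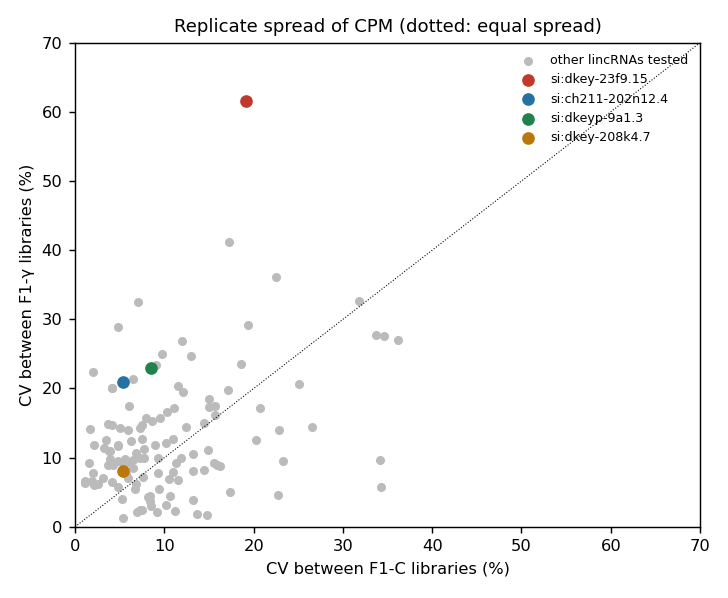
CV of TMM-normalised CPM between the 3 F1-γ libraries (y axis, %) against that between the 3 F1-C libraries (x axis, %) for the 125 lincRNAs tested, with the 4 named lincRNAs in colour. All 4 lie above the dotted line of equal spread, and si:dkey-23f9.15 stands apart at 61.6% in F1-γ and 19.1% in F1-C, a value that is 22.3% in F1-γ without F1-γ replicate 1. The median of the tested lincRNAs was also higher in F1-γ (10.7%) than in F1-C (8.47%).

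Summed over the 4 lincRNAs, the levels were 21364, 14318 and 16000.4 CPM in F1-γ replicates 1, 2 and 3, against 42731, 42849 and 43602 CPM in F1-C. The sum thus varied little among the F1-C libraries, while F1-γ replicate 1 was above the other F1-γ libraries. Its parts were less steady in F1-C. From replicate 1 to replicate 3, si:dkeyp-9a1.3 went from 23777 to 20478 CPM and si:dkey-23f9.15 from 9330.0 to 13660.1 CPM. Together the 4 lincRNAs took 1.83% ± 0.403 of the lincRNA counts in F1-γ and 4.24% ± 0.0510 in F1-C (SD, n = 3 each) when si:dkey-153m14.1 was left out of the total. With that row included the shares were 1.81% ± 0.391 in F1-γ and 3.52% ± 0.117 in F1-C (SD, n = 3 each).

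The lincRNAs most like each of the 4 were taken as those with the highest Pearson's r of log2 CPM over the 6 libraries. The 6 libraries form 2 groups, so such an r holds mostly the difference between the groups, and the r left after each group's mean was taken off is given beside it, as a description. The pattern of si:dkey-23f9.15 was most like that of ENSDART00000154396.2 (r = 0.988, and 0.977 within groups), followed by si:ch211-209a2.1 (0.976, and 0.954 within groups) and si:zfos-1451h6.1 (0.969, and 0.825 within groups). Of these, si:ch211-209a2.1 and si:zfos-1451h6.1 are among the 14 called lower.

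The lincRNAs si:ch211-202n12.4 and si:dkeyp-9a1.3 were each other's most alike (r = 0.980 over the 6 libraries, and 0.835 within groups). Next for si:ch211-202n12.4 were ENSDART00000154396.2 (0.978, and 0.659 within groups) and ENSDART00000164527.2 (0.977, and 0.557 within groups). For si:dkeyp-9a1.3 they were si:zfos-754c12.1 (0.978, and 0.824 within groups) and ENSDART00000194589.1 (0.962, and 0.861 within groups). si:dkey-208k4.7 was most like malat1 over the 6 libraries (r = 0.965), while within groups their r was 0.0768. ENSDART00000169082.2 (0.963, and 0.183 within groups) and ENSDART00000194081.1 (0.963, and 0.949 within groups) came next.

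Within groups, si:dkey-208k4.7 had a negative r with each of the other 3 lincRNAs. Its r after the group means were taken off was -0.95 with si:ch211-202n12.4, -0.78 with si:dkey-23f9.15 and -0.62 with si:dkeyp-9a1.3, with only 3 libraries per group. In F1-C the CV of si:dkey-208k4.7 (5.31%) and si:ch211-202n12.4 (5.32%) was near counting error (4.39% and 5.42%). In F1-γ it was above counting error, 8.12% against 4.82% and 20.9% against 7.35%. In F1-γ replicate 1 the other 3 were at their F1-γ maximum and si:dkey-208k4.7 at its F1-γ minimum. In F1-C replicate 1 si:dkey-208k4.7 was at its F1-C maximum, and si:ch211-202n12.4 and si:dkey-23f9.15 were at their F1-C minimum. There si:dkeyp-9a1.3 was at its F1-C maximum too, so it ran opposite to si:dkey-208k4.7 only in F1-γ. Among the other 3 the within-group r lay between 0.496 and 0.835.

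The lincRNAs nearest in position held few reads. The closest to si:ch211-202n12.4 is ENSDART00000152138.3, 2.03 kb away on the plus strand, with 55, 46 and 53 counts in F1-γ, against 42, 53 and 40 in F1-C. Its counts overlapped between the groups, but its CPM values, scaled with the same TMM factors, did not. They were 398, 352 and 399 in F1-γ, against 457, 518 and 504 in F1-C, so every F1-γ library was lower on that scale only. This row held too few counts to be tested. Among the tested lincRNAs, 23.2% also had every F1-γ library lower in CPM. ENSDART00000152506.3, 18.6 kb from si:ch211-202n12.4, had 21 to 27 counts in F1-γ and 11 to 19 in F1-C, and its CPM overlapped between the groups. The nearest lincRNA to si:dkey-208k4.7, 3.90 kb away on the minus strand, had no more than 1 count in any library. The one nearest to si:dkeyp-9a1.3, 27.6 kb away, had 5 to 10 counts in F1-γ and 3 to 5 in F1-C, and the one nearest to si:dkey-23f9.15, 207 kb away, was at 0 in all 6 libraries.

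How far each lincRNA was lower depended on the scale of the libraries. Scaled to 1e+06 counts of the 4 deposited tables together, si:dkey-23f9.15 had 145 ± 83.2 in F1-γ and 643 ± 95.1 in F1-C, si:ch211-202n12.4 had 84.3 ± 14.4 in F1-γ and 208.05 ± 42.6 in F1-C, si:dkeyp-9a1.3 had 603 ± 116.5 in F1-γ and 1209 ± 343 in F1-C, and si:dkey-208k4.7 had 194 ± 22.7 in F1-γ and 318 ± 78.1 in F1-C (SD, n = 3 each). On this scale too the groups did not overlap for any of the 4, which were chosen by this difference. The share of all tested lincRNAs without overlap was not counted on this scale. With the lincRNA table totals alone, the log2 FC of si:dkey-208k4.7 was -0.47, inside the limit of -0.6, and it was not called. It was not called either with the summed counts of the 4 tables (log2 FC -0.71), the miRNA totals (-0.82) or the piRNA cluster totals (-0.70) as library sizes, where the log2 FC was past the limit and the adjusted p of edgeR's quasi-likelihood test was 0.0680, 0.190 and 0.258. These adjusted p only show which limit ended the call, because si:dkey-208k4.7 was chosen by this same difference. The lincRNA table totals moved the median of all tested lincRNAs up by 0.36, the summed counts of the 4 tables by 0.11 and the piRNA cluster totals by 0.12. A change of library sizes moves every lincRNA by nearly the same amount, so a log2 FC taken relative to that median is nearly fixed by construction. With the lincRNA table totals it was -0.86 for si:dkey-208k4.7.

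**Figure D4:**
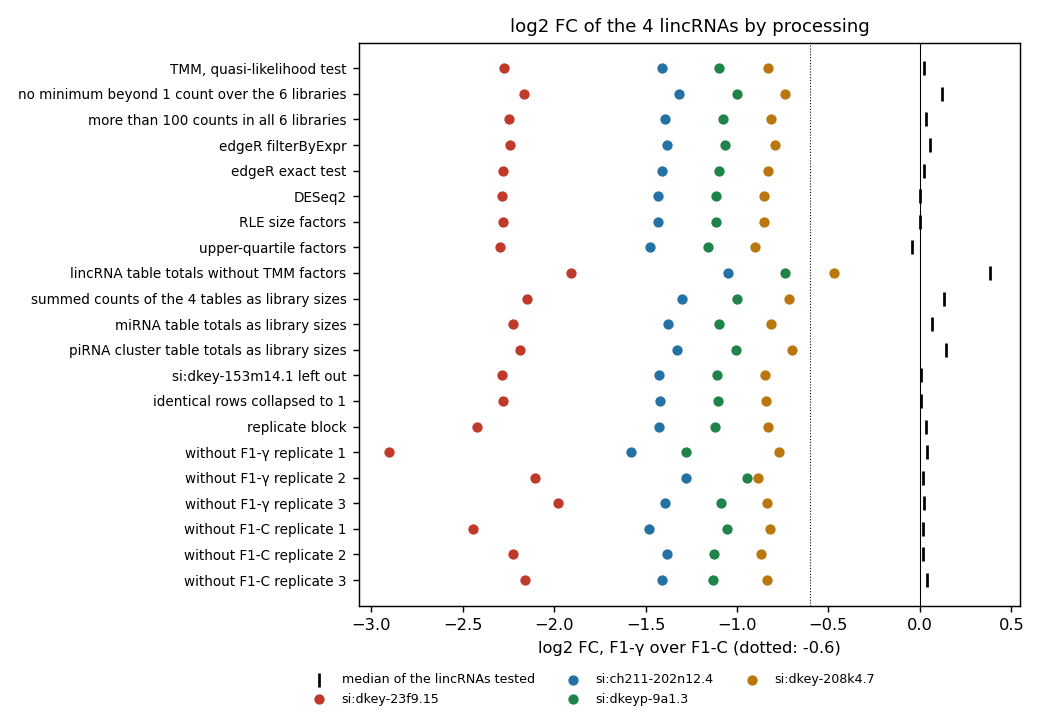
log2 FC of F1-γ over F1-C (x axis) of the 4 lincRNAs (coloured points) and the median of the tested lincRNAs (black bars) under the processing used and its 20 alternatives (rows). Every point of the 4 lies below 0; si:dkey-23f9.15 moves most, between -2.90 and -1.91, and si:dkey-208k4.7 passes the dotted line at -0.6 only with the lincRNA table totals, at -0.47.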

How the data were processed

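Small RNA was measured in 6 libraries. The authors trimmed reads with Trim Galore 0.3.7, filtered them by quality and length, mapped them to GRCz10 and counted them per feature. The lincRNA and snRNA values the authors deposited are whole counts, and the miRNA and piRNA cluster values are estimated counts, none scaled to library size. How reads on several loci entered the lincRNA counts is not stated in the sources used here, so a lincRNA that shares reads with a copy would be uncertain. The snRNA, miRNA and piRNA cluster tables gave only totals, positions and the miR-430 share. Groups came from the library labels.

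lincRNAs with more than 100 counts in at least 3 libraries were tested with edgeR 4.0.16 (R 4.3.3), TMM factors and the quasi-likelihood test, with Benjamini-Hochberg adjustment over all 125, after the procedure was tested on simulated data. Standard errors follow from the log2 FC and its F statistic. DESeq2 1.42.0 was an alternative. Log2 CPM used a prior count of 2. The 4 lincRNAs and the lists were chosen with earlier results of these data known. Named were the 4, their neighbours by log2 FC and position, and for each the 3 most alike lincRNAs. The largest row, ENSDART00000152506.3, the last call and the pair si:dkeyp-116h7.4 and si:dkeyp-116h7.2 were added after values were seen. Counts of each replicate pair differed beyond sampling noise (chi-square per degree of freedom 2.27 to 3.78). The names of lincRNAs are those given in the paper, and all 4 matched a gene identifier by name. p-values across lincRNAs set the difference between the groups against the spread between pools.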

Additional observations from a re-analysis of the deposited data

How the results depend on the processing

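The 4 lincRNAs were chosen by their difference in these same counts. Their values under other processing therefore describe the processing and do not test that difference. The log2 FC of all 4 lincRNAs was below 0 under each of the 20 alternatives. All 4 met the limits for a call lower in 16 of these, and 3 of the 4, without si:dkey-208k4.7, in the 4 that set library sizes by table totals. The log2 FC ended that call with the lincRNA table totals, and the adjusted p ended it with the other 3. Of all lincRNAs tested, 14 of 125 were called lower with the processing used. This was 8 of 125 with the lincRNA table totals, the summed counts or the miRNA totals, and 7 with the piRNA cluster totals. It was 29 of 359 with edgeR's own count filter and 28 of 1086 with no minimum. With the lincRNA table totals the log2 FC was -1.05 for si:ch211-202n12.4, -0.74 for si:dkeyp-9a1.3 and -0.47 for si:dkey-208k4.7, and for the last it was -0.71 with the summed counts of the 4 tables, -0.82 with the miRNA totals and -0.70 with the piRNA cluster totals. The number of lincRNAs called, 18 of 125, was 51 with the lincRNA table totals, 10 with miRNA totals, 9 with piRNA cluster totals, 46 with the adjusted p alone, 48 with edgeR's own count filter and 60 with no minimum, where 359 and 1086 lincRNAs were tested. Leaving out each library in turn gave 14 to 29 calls, the 29 without F1-γ replicate 1. With the replicate number as a block, 19 were called (14 lower, 5 higher). Same-numbered libraries did not deviate together (r = -0.20, -0.16 and -0.09 across lincRNAs), and no library correlated best with its own number. With 3 libraries per group, whether same-numbered libraries share more than a number could not be decided. The F1-γ libraries held 149 to 577 counts of si:dkey-23f9.15 and si:ch211-202n12.4. Counting error at these depths gives about 6.03% and 7.35%, below their CV of 61.6% and 20.9% between F1-γ libraries.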
